A study of Caenorhabditis elegans with 6 samples.

Results

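Glutathione S-transferase genes were examined in newly hatched Caenorhabditis elegans larvae labelled elt-2 RNAi and in their controls. The 10 genes described are gst-1 (R107.7 in the count table), gst-2 (K08F4.6), gst-4 (K08F4.7), gst-5 (R03D7.6), gst-7 (F11G11.2), gst-8 (F11G11.1), gst-10 (Y45G12C.2), gst-36 (R07B1.4), gst-42 (D1053.1) and gsto-1 (C29E4.7), out of 20351 genes in the count table. They were picked by name as glutathione S-transferases, by a rule that uses no measured value but was written with earlier results of these data known, and all 10 were found in the table. The annotation of WBcel235 lists 49 genes named gst, gsto or gstk, of which 48 are in the table, so the 10 are a sample of a larger family.

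Both groups came from N2, the laboratory wild type, and carried no mutation or transgene. About 10000 adults per culture were fed bacteria from Day 1 of adulthood for 24 hours, either bacteria expressing elt-2 double-stranded RNA or bacteria with the empty vector. The adults were then bleached, and the embryos hatched overnight in S-Basal without food, so the larvae measured were unfed L1 larvae whose parents, and not they themselves, had eaten the RNAi bacteria. Each group has 3 biological replicates, A, B and C. Whole larvae were lysed, and poly-A RNA was sequenced at the 3′ end (3SEQ), which gives about the same number of reads per transcript whatever its length.

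Glutathione S-transferases join the small peptide glutathione to reactive, electrophilic molecules, which makes these molecules more soluble and marks them for export from the cell. Some family members also reduce peroxides or disulfides, and others act in ordinary metabolism. In the worm many of these genes are expressed in the gut, the main site of detoxification, where the Nrf-like factor SKN-1 drives several of them under oxidative stress. ELT-2 is the GATA factor that maintains gut gene expression after the gut has formed.

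The libraries held 13700707 to 22124319 counts, and the 100 most abundant genes took 79.5% to 84.7% of them. Levels are given as CPM (each count relative to the total of its library) after TMM scaling, a correction that sets the bulk of genes equal between libraries, and 3 counts, taken as the floor, correspond to 0.135 to 0.244 CPM. Differences are log2 of elt-2 RNAi over Control from edgeR's quasi-likelihood test, adjusted by Benjamini-Hochberg over the 10063 genes tested and called at a false discovery rate of 10%. Of these, 263 (2.61%) were lower and 20 (0.199%) higher in elt-2 RNAi. The targeted gene, elt-2, had 32, 40 and 21 counts in Control and 21, 34 and 44 in elt-2 RNAi, a log2 difference of -0.48 (SE 0.46, adjusted p = 0.660 by edgeR). The elt-2 groups overlapped, and the groups are named by their labels. The highest raw count was in elt-2 RNAi C, the library with the most counts. After scaling, elt-2 was highest in Control B (3.26 CPM, against 2.06 CPM in elt-2 RNAi C). Control A correlated more closely with elt-2 RNAi A (r = 0.962 for log2 CPM across genes, which are not independent replicates) than with Control B (r = 0.913). The 7 gut markers found, of 8 listed, summed to 152 to 547 CPM in Control and 59.6 to 233 CPM in elt-2 RNAi, and none was at 0. On average the actin gene act-5 made up most of this sum, with 104, 499 and 61.4 CPM in Control A, B and C. In elt-2 RNAi A, B and C it had 24.4, 97.6 and 177 CPM. Its means were 221 ± 241 CPM in Control and 99.6 ± 76.2 CPM in elt-2 RNAi (SD, n = 3 each), and the groups overlapped. Of the 7, 1 was called lower and 0 higher, vha-6, a gut proton pump subunit (log2 -2.32, adjusted p = 0.0378 by edgeR). A log2 difference below 0 was seen in 5 of them, which include elt-2 itself, the gene targeted by the RNAi. The other 2, ges-1 (0.15) and elt-7 (0.74), were above 0. Summed markers of body wall muscle spanned 270 to 744 CPM in Control and 175 to 426 CPM in elt-2 RNAi. Those of the pharynx spanned 114 to 377 CPM and 63.2 to 174 CPM, mostly from myo-2. Of these, myo-2 differed by log2 -1.03 and pha-4 by 0.35. Those of the epidermis spanned 75.5 to 155 CPM and 114 to 340 CPM, mostly from dpy-7 (1.26), while the rest differed by -0.24 to 0.23. Neuron markers spanned 53.4 to 91.3 CPM and 40.3 to 69.2 CPM. rab-3 (-1.31) and egl-3 (-1.33) were lower, unc-119 (0.64) and snb-1 (0.33) higher. Germ line markers spanned 18.9 to 28.5 CPM and 16.8 to 28.3 CPM. Control B was the highest Control library in each of these sums, and for rab-3, except for the epidermis, where Control A was. None of the markers tested outside the gut was called. In whole larvae fewer cells of a type and less RNA per cell cannot be told apart, and the part of these marker levels in the values of the transferase genes was not tested.

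In the Control libraries the 10 genes together made up 44.0 ± 6.02 CPM (SD, n = 3), against 47.9 ± 11.4 CPM in elt-2 RNAi. The summed level was 38.8, 42.5 and 50.6 CPM in Control A, B and C and 59.3, 47.9 and 36.5 CPM in elt-2 RNAi A, B and C, so the groups overlapped. gsto-1 was the most abundant, with 32.0% of the summed level in Control and 44.8% in elt-2 RNAi, followed in both groups by gst-7, with 16.8% in elt-2 RNAi. In Control the order of the levels was gsto-1, gst-7, gst-5, gst-36, gst-1, gst-42, gst-10, gst-4, gst-2 and gst-8. The ranges of gsto-1 and gst-7 did not overlap, nor did those of gst-7 and gst-5, gst-4 and gst-2, or gst-2 and gst-8. From gst-5 down to gst-4 each gene overlapped the next, so their order is not separated by the 3 libraries. In elt-2 RNAi gst-1 and gst-4 stood in the third and the fourth place and gst-5 and gst-36 in the seventh and the eighth.

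**Figure D1:**
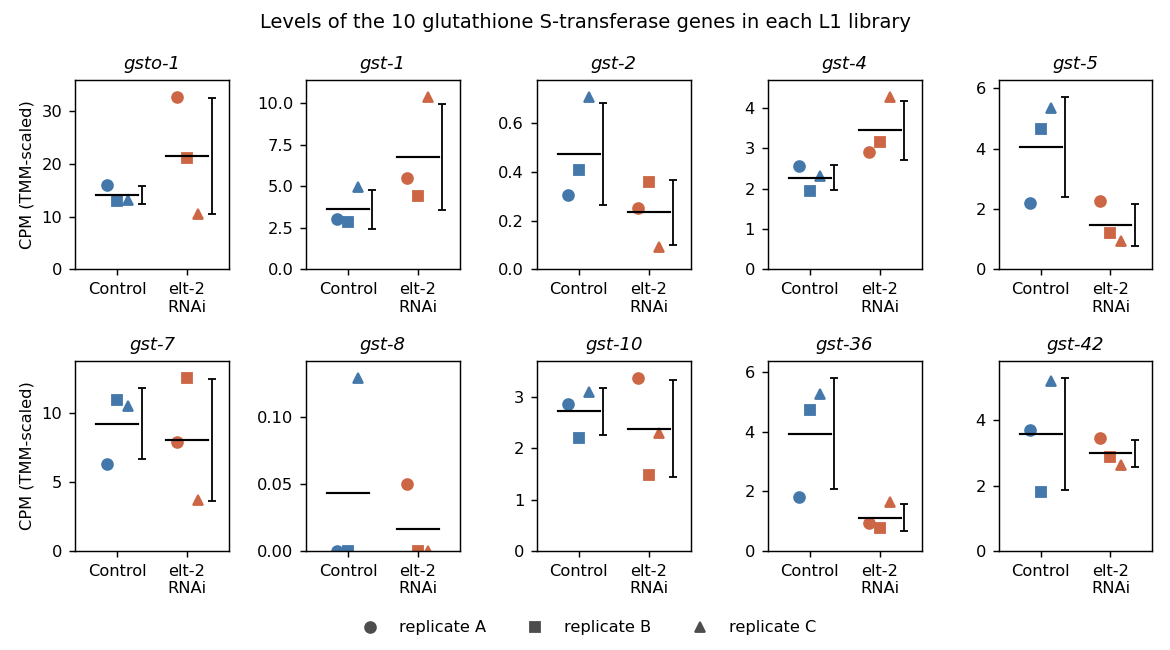
Level of each of the 10 glutathione S-transferase genes in every library, in TMM-scaled CPM on a linear axis that differs between panels. Blue points are Control and orange points elt-2 RNAi, with circles, squares and triangles for replicates A, B and C, lines for the group means and bars for the SD (n = 3; none drawn for gst-8, which is at or under the floor). The groups are apart for gst-4 and gst-36 among the 8 genes tested.

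Of the 10 genes, 8 passed the filter on low counts and 2, gst-2 and gst-8, did not. None of the 8 was called in either direction by edgeR, where 2.81% of all genes tested were called. At an unadjusted p under 0.05 there were 2, gst-5 and gst-36, both lower in elt-2 RNAi, where 14.5% of all genes tested had such a p (10.2% with elt-2 RNAi lower). The Wald test of DESeq2 called 1 of the 8 lower and 0 higher, where it called 5.15% of all genes lower and 0.894% higher. The groups did not overlap for 2 of the 8, gst-36 with all elt-2 RNAi libraries below Control and gst-4 with all above, where 17.9% of all genes tested had groups that did not overlap. The median log2 difference of the 8 genes was -0.20, beside 0.06 over all genes tested. The 95% intervals of the single differences were 1.59 to 2.22 log2 units wide, and those of all 8 genes held a value beyond 1 log2 unit in size.

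The lowest p belonged to gst-36, a transferase gene on chromosome X (9861646 to 9862960, minus strand, 4 exons, here and below in WBcel235). It had 1.82, 4.72 and 5.28 CPM in Control A, B and C and 0.952, 0.764 and 1.64 CPM in elt-2 RNAi A, B and C. All elt-2 RNAi libraries were below all Control libraries, with Control A closest to them. The mean was 3.94 ± 1.85 CPM in Control and 1.12 ± 0.462 CPM in elt-2 RNAi (SD, n = 3 each), a 3.50-fold lower level (log2 -1.81, 95% interval -2.91 to -0.70). The adjusted p of 0.123 by edgeR missed the threshold. Without Control A the difference was -2.15 and passed it (adjusted p = 0.0493), as did gst-36 with the DESeq2 Wald test (0.0367), with the replicate letter as a block (0.0572) and with no filter on low counts (0.0154). Over all alternatives its adjusted p ran from 0.0154 to 0.386. The 3′ end of gst-36 shares 93 bases with scav-5 on the opposite strand, and whether the counting used strand is not given in the sources used here. scav-5 had 69, 143 and 111 counts in Control and 48, 37 and 146 in elt-2 RNAi (log2 -1.07, SE 0.57, adjusted p = 0.424).

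gst-5, on chromosome II (10950352 to 10951603, plus strand, 2 exons), was the other gene with an unadjusted p under 0.05. Its level was 2.19, 4.64 and 5.34 CPM in Control and 2.25, 1.21 and 0.938 CPM in elt-2 RNAi. Control A and elt-2 RNAi A were nearly level, and it is there that the groups overlapped, while replicates B and C of elt-2 RNAi lay below every Control library. The means were 4.06 ± 1.65 and 1.47 ± 0.694 CPM (SD, n = 3), a 2.75-fold lower level in elt-2 RNAi (log2 -1.46, 95% interval -2.52 to -0.40, adjusted p = 0.194 by edgeR). Leaving out Control A gave -1.76 with an adjusted p of 0.0891. Leaving out any other library did not bring gst-5 past the threshold, and library size scaling gave -0.93 (adjusted p = 0.497). Over all alternatives the adjusted p of gst-5 ran from 0.0725 to 0.505.

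gst-4, on chromosome IV (10142225 to 10143099, plus strand, 4 exons), is widely used as a reporter gene for SKN-1 activity under oxidative stress. It had 2.55, 1.95 and 2.32 CPM in Control and 2.91, 3.15 and 4.27 CPM in elt-2 RNAi. Every elt-2 RNAi library was above every Control library, by a small margin between elt-2 RNAi A and Control A, and this also held with libraries scaled by their size alone. The means were 2.27 ± 0.303 and 3.44 ± 0.727 CPM (SD, n = 3), a ratio of 1.51 (log2 0.59, SE 0.36, 95% interval -0.20 to 1.39), and the adjusted p was 0.480 by edgeR. Background for such a pattern was 7.08% of genes tested with all elt-2 RNAi libraries above Control after TMM scaling. That share was not counted with library size scaling. gst-4 shares 65 exonic bases with dhs-12 on the same strand, and dhs-12 had 26, 33 and 42 counts in Control and 28, 18 and 35 in elt-2 RNAi (log2 -0.85, adjusted p = 0.407). The 3 tested genes whose log2(CPM + 1) over the 6 libraries was most like that of gst-4 were blos-7 (r = 0.986), nck-1 (0.983) and Y77E11A.7 (0.981). They are the highest among the 10063 genes tested, over 6 libraries that include the group difference, and shared expression was not tested.

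gst-2 lies 163 bases from gst-4 and is read in the opposite direction (chromosome IV, 10140330 to 10142061, minus strand, 4 exons). It was counted far less often, 5, 5 and 11 times in Control and 5, 8 and 2 times in elt-2 RNAi, and was not tested. Its level of 0.473 ± 0.210 CPM in Control and 0.235 ± 0.134 CPM in elt-2 RNAi (SD, n = 3) lies close to the floor, and the groups overlapped. Without the filter its log2 difference was -0.94 (SE 0.79, adjusted p = 0.688 by edgeR).

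The pi class transferases are represented by gst-1 and gst-10. gst-1 (chromosome III, 9059331 to 9060181, plus strand, 3 exons) had 3.04, 2.85 and 4.95 CPM in Control and 5.51, 4.41 and 10.4 CPM in elt-2 RNAi. The groups touched only where Control C lay above elt-2 RNAi B, and elt-2 RNAi C stood far above the rest. The means were 3.61 ± 1.16 and 6.76 ± 3.17 CPM (SD, n = 3), a ratio of 1.87 (log2 0.90, 95% interval -0.06 to 1.86, adjusted p = 0.379 by edgeR). Scaled by library size alone the groups of gst-1 no longer overlapped, at a log2 difference of 1.21 (adjusted p = 0.380 by edgeR). That scaling put the median of all genes tested at 0.42, and the share of all genes with groups apart was not counted under it. Without elt-2 RNAi C the log2 difference of gst-1 was 0.46 (adjusted p = 0.589 by edgeR). gst-10 (chromosome V, 2561690 to 2564645, plus strand, 3 exons) had 2.86, 2.20 and 3.09 CPM in Control and 3.36, 1.48 and 2.30 CPM in elt-2 RNAi, so the lowest and the highest library were both elt-2 RNAi. Its log2 difference was -0.19 (95% interval -1.10 to 0.71, adjusted p = 0.853).

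gst-42 (chromosome X, 11726264 to 11727936, minus strand, 6 exons) encodes a zeta class enzyme, maleylacetoacetate isomerase, which acts in the breakdown of tyrosine rather than in detoxification. It had 3.71, 1.79 and 5.21 CPM in Control and 3.46, 2.88 and 2.63 CPM in elt-2 RNAi. All elt-2 RNAi libraries lay between the lowest and the highest Control library, with a mean of 2.99 ± 0.426 CPM against 3.57 ± 1.71 CPM (SD, n = 3). The log2 difference was -0.26 (95% interval -1.21 to 0.68, adjusted p = 0.804 by edgeR). The 3 tested genes most like gst-42 over the 6 libraries were srpr-2.1 (r = 0.994), scyl-1 (0.989) and tsp-12 (0.988), with the same limit as for gst-4.

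The omega class gene gsto-1 (chromosome III, 7945542 to 7947018, minus strand, 4 exons) encodes an enzyme with thioltransferase activity, which reduces disulfides formed with glutathione. It was counted 264, 160 and 203 times in Control and 651, 470 and 225 times in elt-2 RNAi, which after scaling gave 32.6, 21.1 and 10.6 CPM in elt-2 RNAi. On the CPM scale the Control libraries were close together, while elt-2 RNAi A and B lay above them and elt-2 RNAi C below them. The means were 14.0 ± 1.74 and 21.4 ± 11.0 CPM (SD, n = 3; log2 0.61, 95% interval -0.42 to 1.64, adjusted p = 0.581 by edgeR). gsto-1 shares 52 bases with kle-2 on the opposite strand (log2 0.51, adjusted p = 0.581 for kle-2).

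gst-7 and gst-8 lie next to each other on chromosome II (4882062 to 4883358 and 4883712 to 4884599, both plus strand with 2 exons). gst-7 had 6.26, 10.9 and 10.5 CPM in Control and 7.92, 12.5 and 3.71 CPM in elt-2 RNAi, and elt-2 RNAi held both the highest and the lowest library. Its log2 difference was -0.20 (95% interval -1.25 to 0.85, adjusted p = 0.877 by edgeR). gst-8, 353 bases downstream of gst-7, was counted 0, 0 and 2 times in Control and 1, 0 and 0 times in elt-2 RNAi. These counts are under the floor of 3 in every library, so no fold is given.

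**Figure D2:**
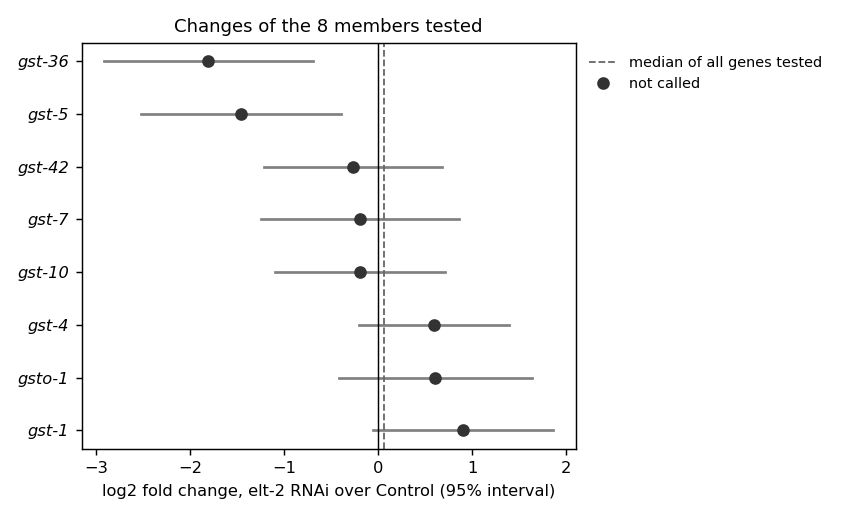
Log2 difference between elt-2 RNAi and Control for the 8 glutathione S-transferase genes tested, with 95% intervals from edgeR; the dashed line is the median of all genes tested (0.06). The intervals of gst-36 and gst-5 lie below 0 and those of the other 6 genes include 0.

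In the elt-2 RNAi group, replicate C was the highest of its group for gst-1, gst-4 and gst-36 and the lowest for gsto-1, gst-7, gst-5, gst-42 and gst-2. With libraries scaled by size alone, the median of all genes tested shifted by 0.37 log2 units, and gst-7, gst-10 and gst-42 turned from slightly lower to slightly higher in elt-2 RNAi. Relative to the median of all genes, the tested transferases had a median of -0.25 with TMM scaling and -0.19 with library size, and gst-36 lay at -1.86 and -1.79.

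Among the 38 other family genes in the table, 17 were tested, of which 2 were called lower and 1 higher. Of all genes tested, 2.61% were called lower and 0.199% higher. gst-6 lies 956 bases upstream of gst-7 in the same orientation, and its level was 4.44, 6.19 and 5.47 CPM in Control and 1.55, 0.899 and 1.22 CPM in elt-2 RNAi. It fell by 2.13 on the log2 scale (SE 0.38, adjusted p = 0.0247 by edgeR), while its neighbour gst-7 differed by -0.20 with overlapping groups. The difference between these neighbours was not tested. gst-27 was counted 19, 11 and 55 times in Control and 3, 2 and 1 times in elt-2 RNAi and was called lower (adjusted p = 0.0217), with no fold given because all elt-2 RNAi libraries were at or under the floor. gst-35 rose in elt-2 RNAi, from 1.34, 0.651 and 1.03 CPM to 4.81, 4.99 and 2.63 CPM (log2 2.02, SE 0.44, adjusted p = 0.0561). Without elt-2 RNAi B none of these 3 was called (adjusted p = 0.121 for gst-6, 0.107 for gst-27 and 0.180 for gst-35), and gst-35 was also not called without Control B (0.160), Control C (0.211) or elt-2 RNAi A (0.145). Scaled by library size, gst-6 had a log2 difference of -1.69 (adjusted p = 0.174). gst-27 and gst-35 lie in a run of family genes on chromosome II, and gst-6 and gst-7 in another. Where such genes are alike in sequence, reads could be split between them. Sequences were not compared, and how such reads were counted is not given in the sources used here. Over all 25 family genes tested the median log2 difference was -0.19, beside 0.06 over all genes tested.

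**Figure D3:**
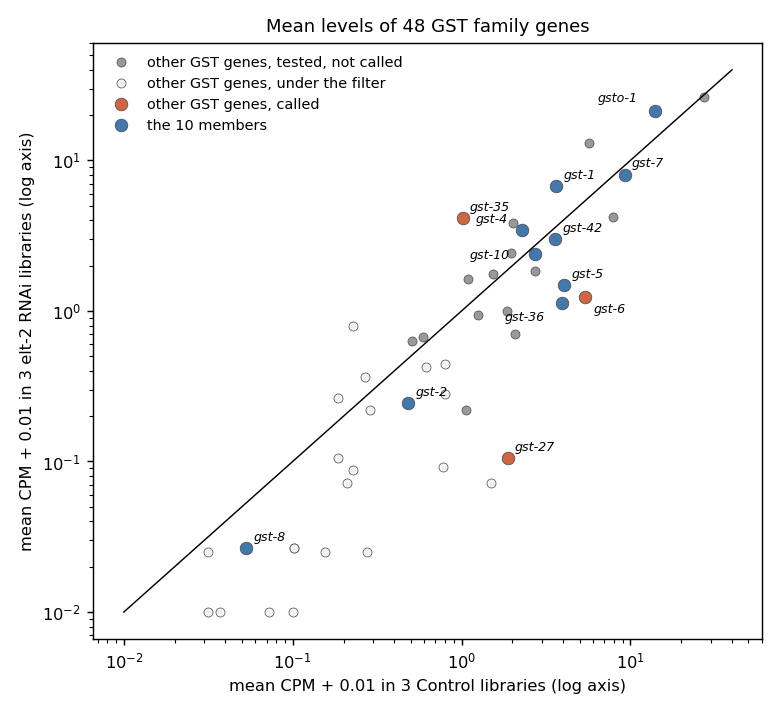
Mean level of the 48 glutathione S-transferase family genes in the table, elt-2 RNAi against Control, in CPM with 0.01 added, both axes logarithmic; the 10 genes described are in blue, the other family genes in grey (open where under the filter on low counts) and the 3 called genes in orange. gst-6 and gst-27 lie below the diagonal of equal levels and gst-35 above it.

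The pathway around the transferases was examined with a list of 26 genes, of which 23 were tested. By edgeR 1 was called lower and 0 higher (2.61% and 0.199% of all genes tested). There were 2 with an unadjusted p under 0.05 (14.5% of all genes tested). The DESeq2 Wald test called 2 lower and 0 higher (5.15% and 0.894% of all genes). Of the 23, 17 had a log2 difference below 0 and 6 above, with a median of -0.14. Over all genes tested 4660 were below 0 and 5403 above, with a median of 0.06. Library size scaling shifted that median by 0.37, so such counts of signs depend on scaling. Among the enzymes that make and recycle glutathione, gcs-1, the rate-limiting enzyme of its synthesis and another SKN-1 target, had a log2 difference of 0.32 (adjusted p = 0.750), the synthetase gss-1 -0.57 (0.613) and the reductase gsr-1 -0.62 (0.550). skn-1 itself had -0.31 (0.717) and wdr-23, which promotes SKN-1 breakdown, -0.14 (0.919). The only call was mrp-3, an ABC transporter of the family that exports glutathione conjugates. mrp-3 had 1.70, 2.60 and 1.99 CPM in Control and 0.401, 0.719 and 0.750 CPM in elt-2 RNAi, and fell by 1.73 on the log2 scale (SE 0.44, adjusted p = 0.0988 by edgeR). This call lay just inside the threshold and was lost on leaving out any library but Control A (adjusted p from 0.0881 without Control A to 0.294 without Control B) and with library size scaling (log2 -1.35, adjusted p = 0.340).

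**Figure D4:**
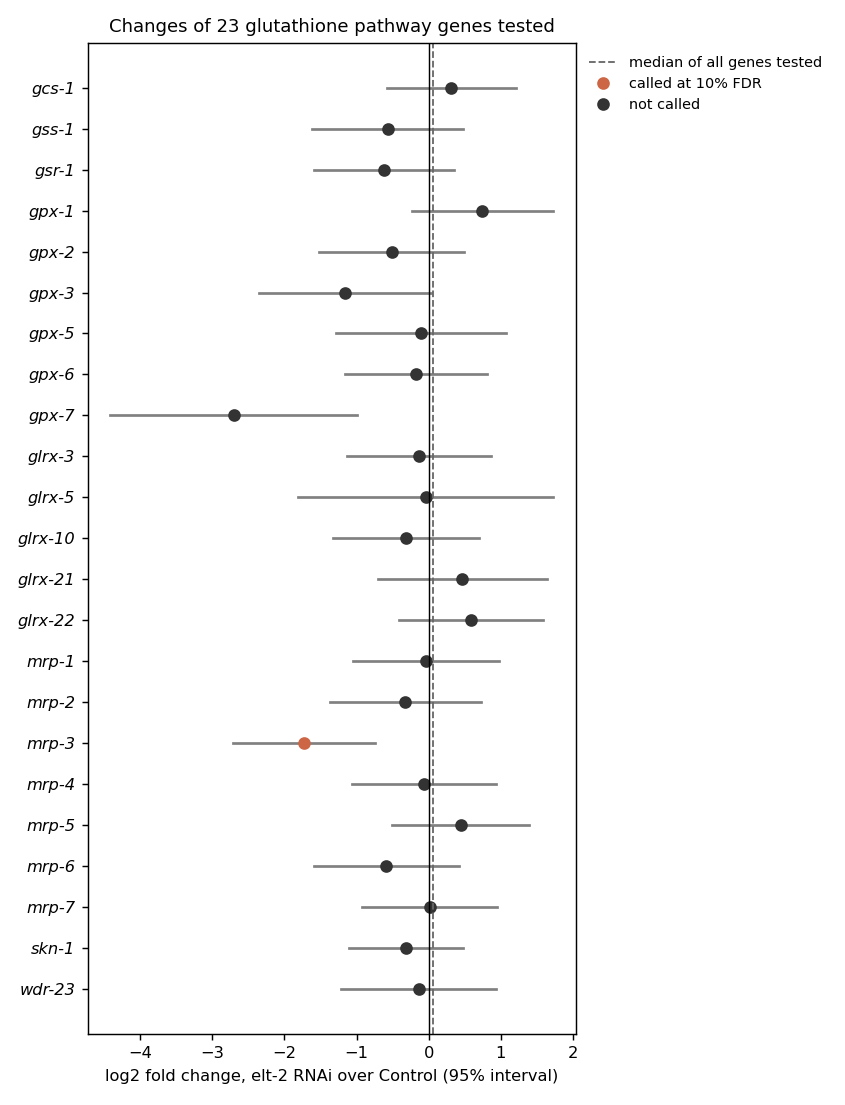
Log2 difference between elt-2 RNAi and Control for the 23 tested genes of the glutathione pathway list with 95% intervals from edgeR, ordered by role, with a dashed line at the median of all genes tested (0.06). mrp-3, the 1 gene called, lies at -1.73, and gcs-1, gss-1, gsr-1, skn-1 and wdr-23 all have intervals that include 0.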

How the data were processed

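RNA of whole L1 larvae was measured in 6 3SEQ libraries, 3 Control and 3 elt-2 RNAi. The authors deposited raw counts of reads per gene for 20351 genes. Bowtie 0.12.7 is named in the submitters' processing notes. The counting tool, annotation and genome build are not given in the sources used here. Gene names and positions came from the annotation of WBcel235, which matched 19395 identifiers. Groups were taken from the sample titles.

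The counts were tested with edgeR 4.0.16 in R 4.3.3 (filterByExpr with a minimum count of 10, TMM, quasi-likelihood test, group as the only term, Benjamini-Hochberg over 10063 genes, threshold 10%). CPM are counts over the TMM-scaled library total. Alternatives were library size, DESeq2 1.42.0 size factors and Wald test, the replicate letter as a block, no filter beyond 1 count, a mean count of at least 10, an adjusted p under 0.05, a difference of mean log2(CPM + 1), and leaving out each library. With 3 libraries against 3, no single gene was tested by permutation. The submitters call the libraries biological replicates.

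The text names all 10 genes, elt-2, every called gene of the other family and pathway genes, and the 3 genes most correlated with gst-4 and with gst-42. The lists, like the 10 genes, were chosen with earlier results of these data known. A search of promoters and a comparison of proteins were planned but not run, since no sequences were used here.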

Additional observations from a re-analysis of the deposited data

How the results depend on the processing

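No transferase of the 10 was called higher under any alternative. The counts called lower and higher over all genes tested were 149 and 52 with library size scaling, 518 and 90 with the DESeq2 Wald test, 790 and 238 with no filter, 132 and 7 at an adjusted p under 0.05, and 77 to 520 and 3 to 63 on leaving out each library. With a mean count of at least 10, 12 genes were called higher. With the letter as a replicate block the counts were 444 and 51. It called 1 of the 10 transferases lower (gst-36, log2 -1.75, adjusted p = 0.0572), where 4.41% of all genes were called lower, and 2 pathway genes. Between Control and elt-2 RNAi of the same letter the correlations of deviations were 0.35, 0.42 and 0.011 for A, B and C. Control A and Control B correlated best with elt-2 RNAi of their own letter, and Control C with elt-2 RNAi A (0.352). Seen from the Control libraries the letters thus matched for A and B and not for C. Seen from the elt-2 RNAi libraries only B matched, as elt-2 RNAi A correlated about equally with Control A (0.351) and Control C (0.352). Whether the letters pair the samples was not tested.

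Of the 10 transferases, the DESeq2 Wald test called 1 lower (gst-36, -1.82, adjusted p = 0.0367), the fit with no filter 2 (gst-36, -1.75, adjusted p = 0.0154, and gst-5, -1.41, adjusted p = 0.0725), and leaving out each library 0 to 2, the 2 without Control A. Of all genes, 4.54% were called lower with no filter, 1.48% with library size, 5.15% with the Wald test and 2.37% with a mean count of at least 10. On leaving out each library this share ran from 0.744% without elt-2 RNAi B to 4.93% without Control A. The share called higher then ran from 0.0286% without Control C to 0.597% without Control A. The family had 25 genes tested in the main fit and 48 with no filter. Family genes called lower numbered 1 with library size, 4 with the Wald test, 8 with no filter and 0 to 6 on leaving out each library (0 without elt-2 RNAi B, 6 without Control A), and those called higher 0 at an adjusted p under 0.05 and 0 to 1 on leaving out each library. Pathway genes called lower numbered 0 with library size, with a mean count of at least 10 and at an adjusted p under 0.05, 2 with the Wald test and with no filter, and 0 to 1 on leaving out each library. The median of the tested transferases was 0.24 with library size and -0.27 to 0.002 on leaving out each library.

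The sign turned with library size for gst-7 (0.29), gst-10 (0.19) and gst-42 (0.062). It also turned for gst-42 without Control C (0.10, range -0.57 to 0.10), for gst-10 without elt-2 RNAi B (0.060, range -0.51 to 0.060) and for gst-7 without elt-2 RNAi C (0.15, range -0.66 to 0.15). Where a call or sign changed, the cause was not tested. Of 96 values of the 8 tested transferases under the alternatives with a test, 84 kept their sign and side of the threshold, 6 passed it and 6 changed sign. Lower genes made up 92.9% of all calls under TMM and 74.1% under library size. With 3 libraries a group and levels of a few CPM, the intervals of all 8 tested genes reach beyond 1 log2 unit and gst-2 and gst-8 are too rare to compare.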

Other observations

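The following genes and ratios were chosen after their values were seen, and none was tested as a group. Several other transferase genes had few counts in elt-2 RNAi. gst-28, next to gst-27, had 9, 18 and 18 counts in Control and 8, 2 and 3 in elt-2 RNAi (log2 -2.30, adjusted p = 0.134 by edgeR). gst-24 had 24, 42 and 21 counts in Control and 24, 10 and 9 in elt-2 RNAi (log2 -1.57, adjusted p = 0.242). gst-33, under the filter, had 5, 23 and 35 counts in Control and 1, 2 and 1 in elt-2 RNAi. By edgeR gst-33 was called lower with no filter (adjusted p = 4.35e-06) and with a mean count of at least 10 (0.0369). It was also called without Control A (0.0135) or elt-2 RNAi A (0.0868), but not without elt-2 RNAi B (0.121) or C (0.111). Without Control B or Control C gst-33 stayed under the filter and was not tested. gst-26, also under the filter, had 8, 4 and 23 counts against 4, 1 and 0. It was called lower with no filter (0.00937), but not without Control B or without any elt-2 RNAi library. Without Control A or Control C gst-26 stayed under the filter and was not tested. Of the peroxidases, gpx-7 had 16, 13 and 33 counts in Control and 7, 0 and 6 in elt-2 RNAi (log2 -2.70, adjusted p = 0.134). gst-20 had 67, 97 and 77 counts in Control and 72, 214 and 551 in elt-2 RNAi (log2 1.21, adjusted p = 0.417). gst-12 had 21, 13 and 57 counts in Control and 14, 10 and 221 in elt-2 RNAi, high in elt-2 RNAi C alone (log2 0.93, adjusted p = 0.699).

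A ratio of 2 genes within a library does not depend on how libraries are scaled. Counts of gst-4 over gst-36 were 1.4, 0.414 and 0.439 in Control and 3.05, 4.12 and 2.6 in elt-2 RNAi. For gst-1 over gst-36 they were 1.67, 0.603 and 0.939 in Control and 5.79, 5.76 and 6.31 in elt-2 RNAi. For the neighbours gst-6 over gst-7 they were 0.709, 0.567 and 0.521 in Control and 0.196, 0.0719 and 0.329 in elt-2 RNAi. The pairs were picked because their genes differed in opposite or unequal ways, so that the groups are apart in these 3 ratios follows from the choice and supports nothing further.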
